A study of Mus musculus with 10 samples.

Results

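The mitochondrial ribosomal protein genes were taken as every gene of the deposited table whose platform symbol begins with Mrpl or Mrps followed by a digit. Each gene was represented by the probe set with the highest mean over the 10 arrays among those that name that gene alone. The rule found 76 genes of 18193, of which 47 carry the Mrpl name of the large subunit and 29 the Mrps name of the small subunit. A total of 156 probe sets named 1 of these genes, so 34 members had a single probe set and 42 had more. A further 2 genes, Mrpl30 and Mrpl53, were seen only on probe sets that also name a second gene and were left out.

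Mitochondrial ribosomes make the few proteins of the respiratory chain and ATP synthase that mitochondrial DNA encodes, and the heart, which lives on oxidative metabolism, depends on them heavily. Their RNA comes from mitochondrial DNA, but all their proteins are encoded in the nucleus, made in the cytosol and imported. Assembly factors help to build both subunits, and translation factors and aminoacyl-tRNA synthetases, also encoded in the nucleus, serve translation by the finished ribosome. Variants of several of the genes cause heart muscle disease in humans.

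Transcripts were measured in hearts of male SV129 littermates at 32 weeks of age. Both knockout groups (KO) were PKCZ -/-, which is to say without the atypical protein kinase C isoform zeta, and both other groups were wild type (WT). KO AngII (2 arrays) and WT AngII (3 arrays) received angiotensin II, a blood pressure hormone that makes the heart grow, over 14 days from osmotic minipumps placed under the skin (432 µg daily per kg), while KO PBS (3 arrays) and WT PBS (2 arrays) are named for the solvent PBS in their titles and non-treated in their source label. The cells in which the PKCZ gene is deleted, and how, are not stated in the labels. An array's name joins its group to the number in its title (WT AngII 2, for example). Whether arrays of a group came from separate animals is not in the labels, so the p-values cover the spread between these samples alone, and that spread may be technical. In whole heart tissue, fewer cells of a type and less RNA per cell cannot be told apart.

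Several arrays stood apart. Over 24 probe sets for bacterial spike-in RNA, KO AngII 3, KO AngII 4 and KO PBS 4 averaged 6.90 to 7.08 log2 and the 7 others 12.86 to 13.33, so both KO AngII arrays were low and all WT arrays were high. The 3′ minus 5′ difference of the beta-actin control probe sets was also lowest on those low arrays, at 0.74 to 0.83 log2. It was 1.38 and 1.28 on KO PBS 2 and 3, 0.92, 1.33 and 1.01 on the WT AngII arrays, and 1.17 and 1.70 on the WT PBS arrays. The part of this actin difference in the members' values was not tested. WT AngII 2 carried the highest signal of fibroblast markers, a mean of 12.15 log2 over 8 genes against 9.43 to 10.62 on the other arrays, and of macrophage markers, 9.79 over 7 genes against 8.30 to 8.92. All 8 cardiomyocyte markers were bright on every array, with means from 13.99 to 14.12. The brightest Prkcz probe set read 5.70 to 5.87 on KO arrays and 6.23 to 6.45 on WT arrays (limma, adjusted p = 0.126). The 2 dimmer Prkcz probe sets gave averaged KO minus WT differences of 0.10 (limma, adjusted p = 0.611) and −0.09 (limma, adjusted p = 0.616), and the labels place none of them relative to the deletion.

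The promoters of 4 members are shown because, of the members with a matched promoter, these lead by p in the most comparisons below. They run from 250 bases before to 50 after the start given by RefSeq on GRCm38.p6, and capitals mark motif matches on either strand.
Mrpl45, chr11:97315466-97315765, plus strand: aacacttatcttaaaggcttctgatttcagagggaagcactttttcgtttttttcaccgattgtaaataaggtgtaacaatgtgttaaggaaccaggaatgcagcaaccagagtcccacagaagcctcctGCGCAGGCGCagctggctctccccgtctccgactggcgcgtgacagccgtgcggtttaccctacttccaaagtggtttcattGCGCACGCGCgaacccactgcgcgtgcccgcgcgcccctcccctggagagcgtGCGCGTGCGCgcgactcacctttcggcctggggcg
Mrps10, chr17:47368947-47369246, plus strand: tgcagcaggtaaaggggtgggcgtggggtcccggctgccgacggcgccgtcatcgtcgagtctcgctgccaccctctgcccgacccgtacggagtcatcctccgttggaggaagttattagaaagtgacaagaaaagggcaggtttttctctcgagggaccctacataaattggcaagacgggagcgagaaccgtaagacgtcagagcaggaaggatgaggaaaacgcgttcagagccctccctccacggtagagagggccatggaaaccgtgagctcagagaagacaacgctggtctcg
Mrps18a, chr17:46110754-46111053, plus strand: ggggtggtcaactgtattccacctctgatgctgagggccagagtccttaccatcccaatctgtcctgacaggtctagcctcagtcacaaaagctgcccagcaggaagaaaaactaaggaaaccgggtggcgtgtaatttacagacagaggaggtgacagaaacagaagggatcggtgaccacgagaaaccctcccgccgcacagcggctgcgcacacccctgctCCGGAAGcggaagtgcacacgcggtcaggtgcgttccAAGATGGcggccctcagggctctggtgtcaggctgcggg
Mrps36, chr13:100744610-100744909, minus strand: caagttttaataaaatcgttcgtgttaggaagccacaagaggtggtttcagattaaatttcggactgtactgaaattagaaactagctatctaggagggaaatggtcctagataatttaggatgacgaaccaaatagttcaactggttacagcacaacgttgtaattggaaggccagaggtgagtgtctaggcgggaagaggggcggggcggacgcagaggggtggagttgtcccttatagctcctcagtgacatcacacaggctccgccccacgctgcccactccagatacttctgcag
The letters searched were GCGCA and GCGC parted by any 1 base, the core of the site of NRF1 (nuclear respiratory factor), CCGGAAG for ETS factors such as GABP, AAGATGG for the YY1 core, and AAGGTCA for the half-site of the ERR alpha receptor. The Mrpl45 promoter held the NRF1 core in 3 places, and that of Mrps18a held 1 ETS and 1 YY1 match. The promoters of Mrps10 and Mrps36 held none of these letters in this window.

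RefSeq promoters were matched for 67 of the 76 members, and their motif content is given beside that of the 27025 genes of the same table. That background was not limited by level in these hearts, whereas all 76 members lay at or above the median level of the probe sets. The ETS letters occurred in 25 members (37.3%, against 9.93% of all genes), the NRF1 core in 12 (17.9%, against 5.19%) and the YY1 core in 13 (19.4%, against 7.28%). The ERR alpha half-site was about as frequent in the members, 4 of 67 (5.97%), as in all genes (5.38%). An NRF1 core or ETS match was present in 21 of 41 large subunit and 12 of 26 small subunit promoters. Members with and without an ETS match had a median AngII minus PBS difference of −0.18 and −0.21 log2 in WT hearts and of −0.07 and −0.12 in KO hearts. For the NRF1 core the medians were −0.20 with and −0.19 without it in WT hearts, and −0.21 with and −0.09 without it in KO hearts. For the YY1 core they were −0.12 with and −0.21 without it in WT hearts, and −0.01 with and −0.12 without it in KO hearts. These are descriptions of 12 to 55 genes with no test, and a match is not a binding site.

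The 76 members all lay at or above the median level of the probe sets, with mean signals from 8.20 to 12.78 log2, a range that reflects how well each probe set binds as well as amounts. Their median spread within groups was 0.13 log2 (residual SD), against 0.17 for all genes, and their median range over the 10 arrays was 0.47, against 0.57. The narrowest range belonged to Mrpl40, a large subunit protein encoded in the region deleted in human DiGeorge syndrome, at 0.17 log2. The widest ranges were those of Mrpl52 (1.18), Mrps10 (0.98) and Mrps9 (0.92).

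Each member was then centred on its mean over the 10 arrays, and the median over a subunit was taken per array. For the large subunit this median was −0.07 and 0.00 log2 on the KO AngII arrays 3 and 4, and −0.02, 0.18 and 0.01 on the KO PBS arrays 2, 3 and 4. It was −0.18, −0.07 and −0.04 on the WT AngII arrays 2, 3 and 4, and 0.08 on both WT PBS arrays. The WT groups thus did not overlap, whereas among KO arrays the difference rested largely on KO PBS 3, the highest of all. For the small subunit the medians were −0.12 and −0.04 on the KO AngII arrays, 0.03, 0.19 and −0.01 on the KO PBS arrays, −0.12, −0.05 and −0.07 on the WT AngII arrays, and 0.11 and 0.15 on the WT PBS arrays. Within each genotype, the small subunit medians of all AngII arrays were below those of all PBS arrays. The same median over all genes stayed between −0.02 and 0.04.

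**Figure D1:**
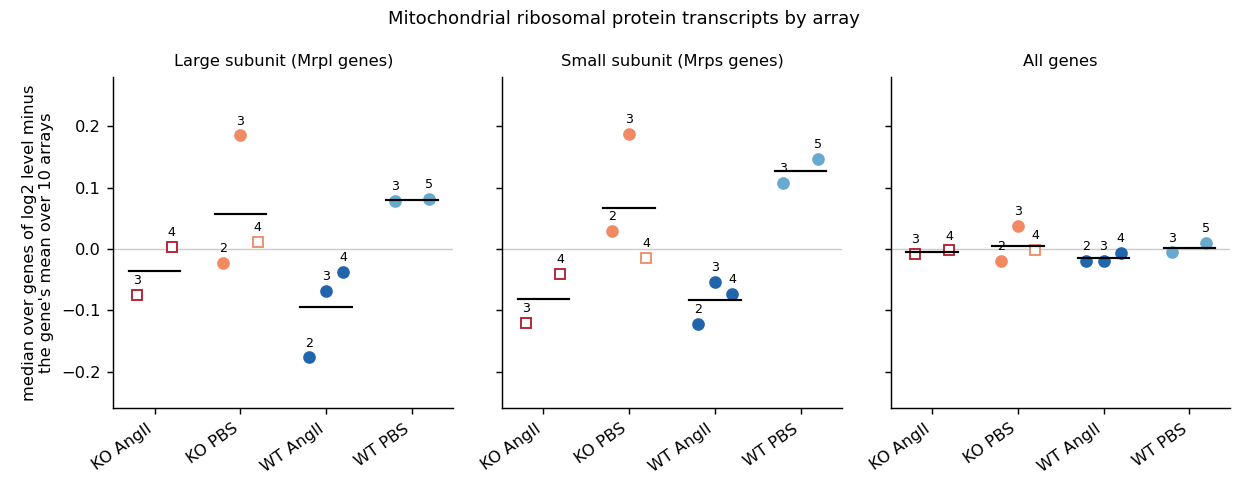
Median over the large subunit genes, the small subunit genes and all genes of the log2 level minus the gene's mean over 10 arrays, for each array (points, with title numbers), with the group mean as a bar. Open squares are the arrays with low spike-in signal. Both subunits lie lower on WT AngII than on WT PBS arrays, and KO PBS 3 lies at 0.18 and 0.19, above every other array, while all genes stay near 0.

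A few arrays decided the extremes. KO PBS 3 was the highest array for 48 of the 76 members, 32 large and 16 small, and for 14.1% of all genes. WT AngII 2 was the lowest array for 32 members, 23 large and 9 small, and for 21.5% of all genes. It was the highest array for 0 members, although it was the highest for 21.6% of all genes. The fibroblast and macrophage marker signal was highest on the same array, and its part in the members' values was not tested.

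The first comparison asked how AngII infusion moved these transcripts in WT hearts. In WT hearts, 70 of 76 members had a lower mean with AngII than with PBS, 44 of 47 in the large and 26 of 29 in the small subunit, where 51.0% of all genes did. The median difference was −0.18 log2 (−11.6%) for the large subunit, −0.23 (−14.8%) for the small subunit and −0.00 for all genes. Bright genes as a whole leaned the same way by a smaller amount: of the 12123 genes at or above the median level, a set chosen after seeing the data, 58.6% were lower, with a median of −0.04. No member passed the test (limma, lowest adjusted p = 0.93), and none of 45037 probe sets did (0%). At an unadjusted p under 0.05, 10 members were lower, 4 large and 6 small, where 3.77% of all genes were lower at that p, and 0 were higher (1.65% of all genes).

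In 37 members, 20 large and 17 small, all WT AngII arrays read below both WT PBS arrays, a pattern shown by 12.7% of all genes. The opposite pattern was shown by 0 members and by 7.87% of all genes. Without WT AngII 2, 69 members stayed below 0 and the medians were −0.12 for the large and −0.16 for the small subunit, nearer to 0 for both. Bright genes then had a median of −0.10, with 65.9% below 0, which is close to the large subunit value. All remaining AngII arrays were then below the PBS arrays in 38 members (28.6% of all genes and 38.5% of bright genes) and above them in 2 (23.3%), and at an unadjusted p under 0.05, 6 members were lower (7.33% of all genes) and 0 higher (4.8%). Fibroblast markers averaged 9.88 to 12.15 log2 on the WT AngII arrays, against 9.43 to 9.88 on the WT PBS arrays (8 genes), and macrophage markers 8.67 to 9.79, against 8.62 to 8.92 (7 genes). Cardiomyocyte markers averaged 14.06 to 14.09 on the WT AngII arrays, against 14.05 to 14.08 on the WT PBS arrays, and the part of other cell types in the members' differences was not tested.

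**Figure D2:**
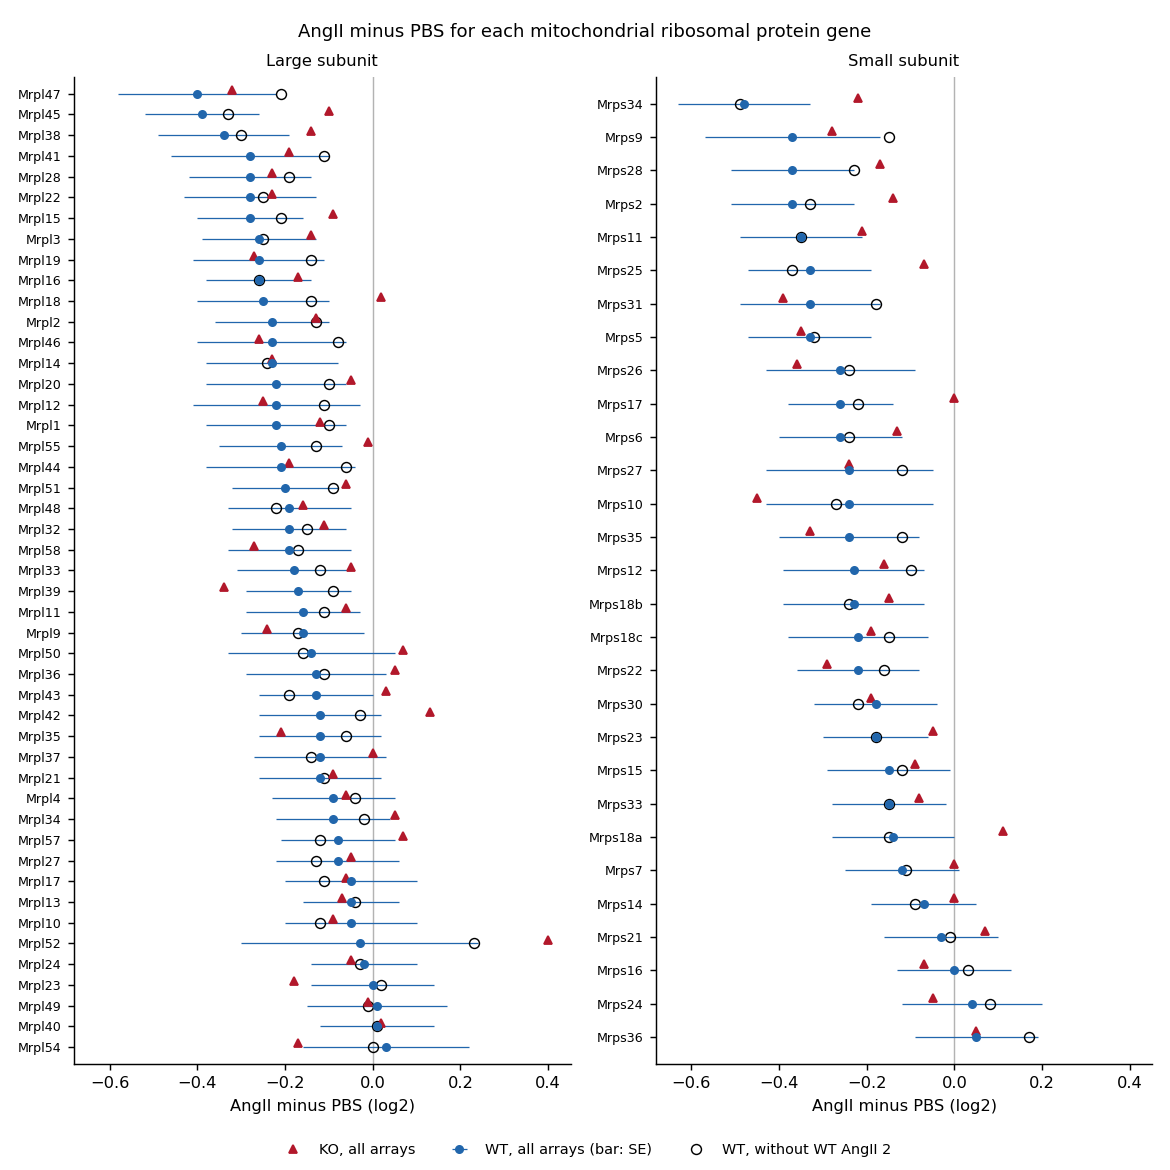
AngII minus PBS log2 difference of each of the 76 members, in KO hearts (red triangles), in WT hearts (blue points with SE bars) and in WT hearts without WT AngII 2 (open circles), with the large subunit on the left and genes ordered by the WT difference. Most symbols lie left of 0, from −0.49 for Mrps34 in WT hearts without WT AngII 2 to 0.40 for Mrpl52 in KO hearts.

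The small subunit gave the largest single difference. Mrps34, a small subunit protein found only in mitochondrial ribosomes and needed for the stability of that subunit, read 10.56, 10.62 and 10.43 log2 on the WT AngII arrays, against 11.06 and 10.97 on the WT PBS arrays. The groups did not overlap, and the difference was −0.48 ± 0.15 (SE; limma, adjusted p = 0.93; −0.49 without WT AngII 2). In KO hearts Mrps34 read 10.34 and 10.62 with AngII, against 10.76, 10.85 and 10.48 with PBS, and there the groups overlapped (−0.22 ± 0.15; 0.00 with the spike-in signal as a block in the fit). Mrps2, the counterpart of a bacterial small subunit protein, read 9.20, 9.44 and 9.18 on the WT AngII arrays, against 9.59 and 9.70 on the WT PBS arrays. Its difference was −0.37 ± 0.14 without overlap, but its dimmer probe set gave 0.23, so the probe sets of Mrps2 disagreed in direction.

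In the large subunit the leading members were Mrpl45 and Mrpl38. Mrpl45, which lies at the exit of the peptide tunnel and anchors the ribosome to the inner membrane, read 9.44, 9.63 and 9.61 on the WT AngII arrays, against 9.96 and 9.93 on the WT PBS arrays. The difference of −0.39 ± 0.13 came without overlap (−0.33 without WT AngII 2). Mrpl38, a protein of the central protuberance, read 9.13, 9.15 and 9.35 on the WT AngII arrays, against 9.49 and 9.61 on the WT PBS arrays. Its groups did not overlap either (−0.34 ± 0.15), and its 2 dimmer probe sets gave −0.09 and 0.05. All of these had an adjusted p of 0.93.

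Members above 0 in WT hearts were few and close to 0. There were 6, Mrpl40, Mrpl49, Mrpl54, Mrps16, Mrps24 and Mrps36, and the furthest was Mrps36 at 0.05 ± 0.14. Mrps36 differs from the others in what it is known for, since its protein is a subunit of the oxoglutarate dehydrogenase complex of the citric acid cycle. Mrpl54 stood at 0.03 ± 0.19, Mrps24 at 0.04 ± 0.16 and Mrpl40 at 0.01 ± 0.13. Mrpl40 read 9.18, 9.17 and 9.21 on the WT AngII arrays and 9.17 and 9.19 on the WT PBS arrays, and these groups overlapped. The count above 0 depended on the scaling: with quantile normalisation repeated, 17 members were above 0, up to 0.14, and 1 member was lower at an unadjusted p under 0.05, where 2.61% of all genes were.

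**Figure D3:**
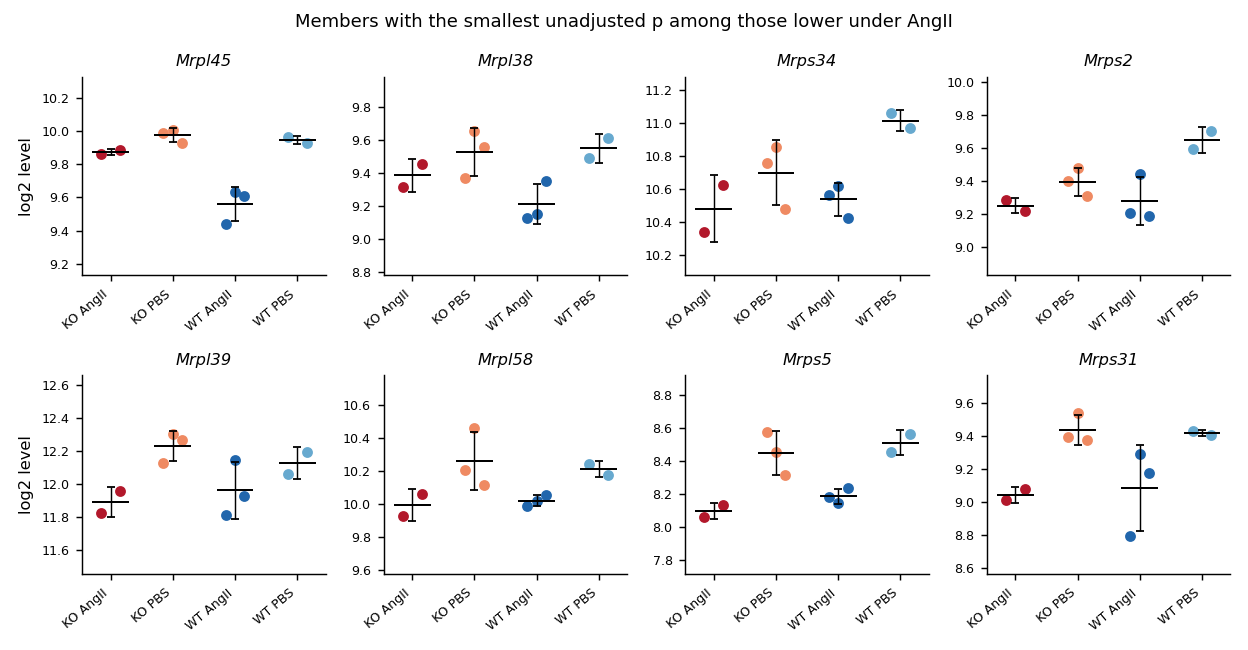
Log2 level on each array (points) with the group mean (bar) and SD (whiskers) for the 2 large and 2 small subunit members with the smallest unadjusted p among those lower with AngII, in WT hearts (upper panels) and in KO hearts (lower panels). Every panel spans 1.2 log2 units on its own range. In WT hearts the AngII points of Mrpl45, Mrpl38, Mrps34 and Mrps2 lie below the PBS points, and in KO hearts those of Mrpl39, Mrpl58, Mrps5 and Mrps31 do.

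The second comparison asked the same question in KO hearts, against other control arrays. In KO hearts, 64 of 76 members had a lower mean with AngII than with PBS, 38 of 47 large and 26 of 29 small, against 52.1% of all genes. The median difference was −0.09 log2 (−6.17%) for the large subunit, −0.15 (−9.88%) for the small subunit and −0.01 for all genes. Bright genes had a median of −0.05, with 60.1% below 0, so part of this lean was shared by bright genes in general. No member passed the test (limma, lowest adjusted p = 0.892), nor did any probe set (0%). At an unadjusted p under 0.05, 4 members were lower, 1 large and 3 small (2.94% of all genes), and 0 were higher (1.42%). Both AngII arrays read below all 3 PBS arrays in 27 members, 15 large and 12 small (13.5% of all genes and 17.6% of bright genes), and above them in 0 (12.5%). Fibroblast markers averaged 10.33 to 10.62 log2 on the KO AngII arrays, against 9.52 to 9.72 on the KO PBS arrays, and macrophage markers 8.60 to 8.78, against 8.30 to 8.52, while cardiomyocyte markers averaged 14.11 to 14.12, against 13.99 to 14.02. Both KO AngII arrays had low spike-in signal, and with that signal as a block the medians were −0.07 and −0.03 and 50 members were below 0. Without KO PBS 3 the large and small subunit medians were −0.04 and −0.09, and without KO AngII 3 they were −0.06 and −0.08. With quantile normalisation repeated they were −0.05 and −0.07, and 54 members were below 0. The blocked value rests on KO PBS 4, and with a single PBS array of low signal the part of the spike-in split was not tested further.

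By the size of p, the leading large subunit members in KO hearts were Mrpl39 and Mrpl58. Mrpl39, a large subunit protein related to threonyl-tRNA synthetase, read 11.83 and 11.96 log2 on the KO AngII arrays, against 12.13, 12.30 and 12.26 on the KO PBS arrays. The groups did not overlap (−0.34 ± 0.12), its other probe set gave −0.42, and the value was −0.37 with the spike-in block. Mrpl58, a peptidyl-tRNA hydrolase built into the large subunit that frees stalled ribosomes, read 9.93 and 10.06 on the KO AngII arrays, against 10.21, 10.46 and 10.12 on the KO PBS arrays (−0.27 ± 0.14). These groups also did not overlap, although the gap between the nearest arrays was small, and the value was −0.12 with the block.

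Among small subunit members, Mrps31, which occurs only in mitochondrial ribosomes, read 9.01 and 9.08 on the KO AngII arrays, against 9.39, 9.54 and 9.38 on the KO PBS arrays. The difference was −0.39 ± 0.16 (−0.33 with the block) and its other probe set gave −0.14. Mrps5, the counterpart of a bacterial small subunit protein, read 8.06 and 8.13 on the KO AngII arrays, against 8.58, 8.45 and 8.31 on the KO PBS arrays (−0.35 ± 0.14; −0.22 with the block). In WT hearts Mrps5 read 8.18, 8.14 and 8.23 with AngII, against 8.46 and 8.56 with PBS (−0.33 ± 0.14), so on this probe set its groups were apart in both genotypes. Its 4 other probe sets disagreed in direction, from −0.09 to 0.05 in KO hearts and from −0.14 to 0.11 in WT hearts. These members had an adjusted p of 0.892 in KO hearts.

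Above 0 in KO hearts were 12 members, and Mrpl52 was furthest at 0.40 ± 0.27. It read 10.43 and 10.58 on the KO AngII arrays, against 9.73, 9.999 and 10.58 on the KO PBS arrays. The 3 arrays with low spike-in signal were its 3 highest, so the groups overlapped, and the blocked difference was −0.08. Mrpl42 stood at 0.13 ± 0.14 (−0.12 with the block), Mrps18a at 0.11 ± 0.14 and Mrps21 at 0.07 ± 0.13.

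Both genotypes were then read side by side. A total of 60 members were below 0 in both, where 34.9% of all genes were, and 2 were above 0 in both, Mrpl40 and Mrps36. All members are bright, and bright genes leaned lower with AngII in each genotype. The share of bright genes was not taken for this count or the next. In 17 members all AngII arrays were below all PBS arrays within both genotypes (4.11% of all genes): Mrpl2, Mrpl9, Mrpl15, Mrpl16, Mrpl22, Mrpl28, Mrpl45, Mrpl46, Mrpl47, Mrpl58, Mrps2, Mrps5, Mrps11, Mrps12, Mrps28, Mrps30 and Mrps31. Proteins with bacterial counterparts, such as those of Mrpl2, Mrps5 and Mrps12, stand in this group beside mitochondrial ones such as those of Mrps30 and Mrps31. The group was read on 1 probe set per gene, and further probe sets did not all share the direction. That of Mrps2 gave 0.23 in WT and 0.39 in KO hearts, and that of Mrps31 gave −0.19 and −0.14.

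Members known from human heart disease were followed in every comparison. Variants of the human counterparts of Mrpl3, Mrpl44 and Mrps22 cause cardiomyopathy, and the Mrpl12 protein forms the stalk of the large subunit that receives translation factors. Mrps22 read 8.99 and 9.07 log2 on the KO AngII arrays, against 9.34, 9.39 and 9.25 on the KO PBS arrays, a difference of −0.29 ± 0.14 without overlap. It read 8.96, 9.17 and 9.06 on the WT AngII arrays, against 9.38 and 9.17 on the WT PBS arrays, where the nearest arrays met (−0.22 ± 0.14). Mrpl3 differed by −0.14 ± 0.13 in KO hearts and by −0.26 ± 0.13 in WT hearts, with no overlap in WT hearts alone. Its other 3 probe sets ranged in WT hearts from −0.33 to 0.27, so that value rests on the probe set chosen.

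Mrpl44 differed with AngII by −0.19 ± 0.17 in KO hearts and −0.21 ± 0.17 in WT hearts, with all 4 probe sets below 0 in both. Mrpl12 differed by −0.25 ± 0.19 in KO hearts and −0.22 ± 0.19 in WT hearts. It read 10.82 and 10.99 on the KO AngII arrays, against 11.29, 11.41 and 10.75 on the KO PBS arrays. The 3 arrays of low spike-in signal were among its 4 lowest, and its KO difference was 0.15 with the block. In the genotype comparisons and the interaction, the differences of these 4 genes lay between −0.19 (Mrpl12, KO minus WT with AngII) and 0.11 (Mrpl3, interaction). None of the 4 genes passed the test in any of the 6 comparisons.

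The further probe sets of the members were counted separately. Over the 80 further probe sets of 42 members, 57 were below 0 in WT hearts and 44 in KO hearts. Of all genes, on the probe set chosen for each, 51.0% were below 0 in WT hearts and 52.1% in KO hearts. In KO hearts the further probe sets thus lay near that share, so the lean there was seen on the chosen probe sets and hardly on the further ones. The further ones are dimmer, and the share below 0 among further probe sets of all genes was not counted. All probe sets of a gene had 1 sign for 20 of the 42 members in WT hearts and for 15 in KO hearts.

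Genotype was compared next, within each treatment. With PBS, 43 of 76 members were lower in KO than in WT hearts, against 50.6% of all genes, with medians of −0.01 log2 for the large and −0.06 for the small subunit. No member passed the test (limma, lowest adjusted p = 0.799), where 0.0133% of probe sets did, and 0 members had an unadjusted p under 0.05, where 2.31% of all genes were higher and 3.44% lower at that p. All KO PBS arrays were below both WT PBS arrays in 8 members (12.1% of all genes) and above them in 2 (12.6%). By the size of p, Mrps34 (−0.32 ± 0.15), named above for AngII, and Mrps2 (−0.25 ± 0.14) led the small subunit members below 0. Those leading in the large subunit were Mrpl20 (−0.21 ± 0.16, and −0.11 with the block) and Mrpl51 (−0.14 ± 0.12). Mrpl14 (0.24 ± 0.15) and Mrps16 (0.09 ± 0.13) stood above 0 with overlap, and Mrpl23 (0.18 ± 0.14) and Mrps36 (0.16 ± 0.14) without. Bright genes had a median of −0.05. When quantile normalisation was repeated, 15 members were below 0 and the medians were 0.10 and 0.07, so the sign of these medians turned with the scaling.

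With AngII, 28 of 76 members were lower in KO than in WT hearts, against 49.1% of all genes, with medians of 0.05 log2 for the large and 0.01 for the small subunit. No member passed the test (limma, lowest adjusted p = 0.734), where 0.0111% of probe sets did, and at an unadjusted p under 0.05 Mrpl45 alone was higher (2.39% of all genes) and 0 were lower (4.25%). Both KO AngII arrays were above all 3 WT AngII arrays in 13 members, 10 large and 3 small (13.5% of all genes), and below them in 3 (14.5%). Without WT AngII 2 the medians were 0.01 and 0.01 and 36 members were lower, with 15 wholly above (21.2% of all genes) and 14 wholly below (19.6%), and without KO AngII 4 the medians were 0.01 and −0.02, so these small values depended on single arrays. Bright genes had a median of −0.06 with all arrays. With the spike-in block they were 0.11 and 0.15, and 13 members were lower, whereas with array medians set equal they were −0.01 and −0.04. Every KO AngII array was low in spike-in signal and every WT AngII array high, so here genotype and that signal cannot be told apart without KO PBS 4.

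Single members in this comparison were the following. Mrpl45 read 9.86 and 9.89 on the KO AngII arrays, against 9.44, 9.63 and 9.61 on the WT AngII arrays, without overlap (0.32 ± 0.13). On PBS arrays it read 9.99, 10.01 and 9.93 in KO hearts and 9.96 and 9.93 in WT hearts, so WT AngII lay below the other 3 groups. Mrps18a, whose protein sits in the large subunit despite its name, read 9.85 and 9.88 on the KO AngII arrays, against 9.59, 9.59 and 9.53 on the WT AngII arrays. These groups did not overlap (0.30 ± 0.14; adjusted p = 0.734), and with array weights Mrps18a alone among the members passed the test, at 0.33 (limma, adjusted p = 0.0444), where 2911 probe sets did. Mrpl52 differed by 0.57 ± 0.27, but by −0.15 with the spike-in block. Mrps28 stood at 0.17 ± 0.14 (0.03 without WT AngII 2). Below 0, Mrpl54 stood at −0.26 ± 0.19, Mrpl12 at −0.19 ± 0.19 and Mrps27 at −0.19 ± 0.19, all with overlap, and with the block these were 0.10, 0.40 and 0.21.

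Mrps10, the counterpart of a bacterial small subunit protein, had lower means in KO hearts but did not pass the test. It read 8.58 and 8.999 on the KO AngII arrays, against 9.26, 9.20 and 9.15 on the WT AngII arrays, and 9.22, 9.56 and 8.93 on the KO PBS arrays, against 9.45 and 9.44 on the WT PBS arrays. The groups did not overlap with AngII (−0.41 ± 0.19) and did with PBS. The 3 arrays of low spike-in signal were its 3 lowest, and with the block the difference with AngII was 0.05. Averaged over treatments it was −0.31 ± 0.14 (limma, adjusted p = 0.39), but 0.00 with the block, and the other Mrps10 probe set gave 0.00.

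Averaged over treatments, 36 of 76 members were lower in KO than in WT hearts (48.8% of all genes), with medians of 0.02 log2 for the large and −0.02 for the small subunit. No member passed the test, where 0.0444% of probe sets did. At an unadjusted p under 0.05, Mrpl14 alone was higher (4.91% of all genes) and Mrps10 alone was lower (7.91%). Mrpl14, a protein of the face that meets the small subunit, read 9.83 and 10.01 on the KO AngII arrays, against 9.71, 9.70 and 9.65 on the WT AngII arrays, and 9.92, 10.38 and 10.14 on the KO PBS arrays, against 9.96 and 9.87 on the WT PBS arrays. Its averaged difference was 0.24 ± 0.11 (limma, adjusted p = 0.4), with overlap on PBS arrays and none with AngII. The other leading members were Mrpl45 (0.17 ± 0.09), Mrps18a (0.17 ± 0.10) and Mrps36 (0.16 ± 0.10) above 0, and Mrps34 (−0.19 ± 0.10), Mrpl12 (−0.18 ± 0.13) and Mrpl54 (−0.16 ± 0.14) below it, and the last 3 were 0.03, 0.22 and 0.08 with the block. Repeated quantile normalisation moved the medians to 0.11 and 0.10, with 10 members below 0.

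**Figure D4:**
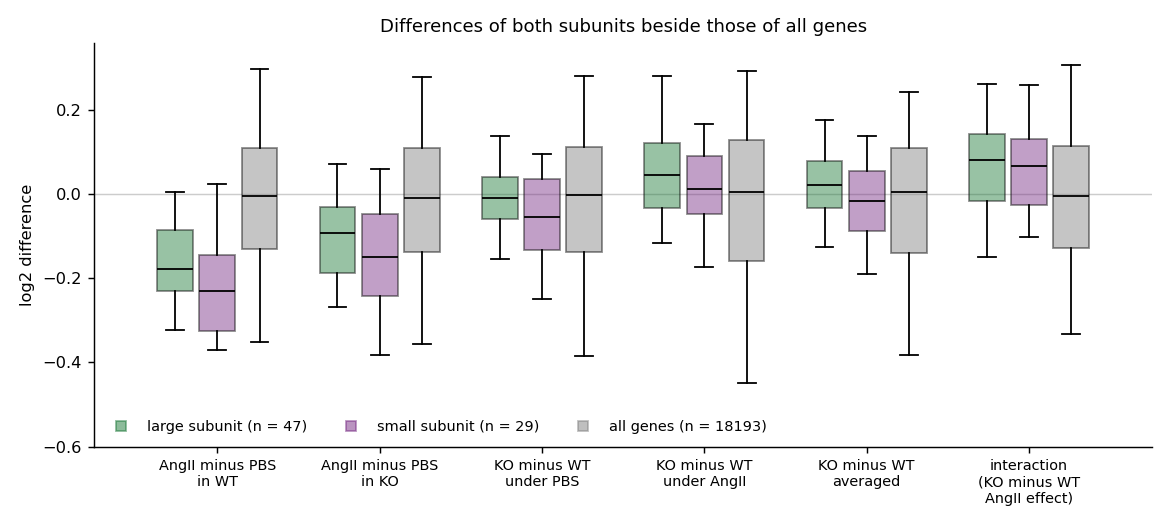
Log2 differences of the large subunit members (green), the small subunit members (purple) and all genes (grey) in the 6 comparisons. Boxes span the quartiles with the median as a line, and whiskers reach percentiles 5 and 95. The 2 AngII comparisons place both subunits below 0, with medians from −0.23 to −0.09, and the genotype comparisons place them near 0.

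The last comparison asked whether the AngII difference itself differed between genotypes. The median interaction, the AngII difference in KO minus that in WT hearts, was 0.08 log2 for the large and 0.07 for the small subunit, and 25 of 76 members were below 0 (51.4% of all genes). No member passed the test (limma, lowest adjusted p = 1), nor did any probe set (0%), and 0 members reached an unadjusted p under 0.05 in either direction (0.945% of all genes higher, 0.467% lower). By the size of p, Mrpl45 (0.29 ± 0.18) and Mrpl18 (0.27 ± 0.21) led among large subunit members above 0 and Mrpl39 (−0.17 ± 0.17) and Mrpl23 (−0.18 ± 0.19) among those below 0. In the small subunit Mrps17 (0.26 ± 0.17) and Mrps25 (0.26 ± 0.20) stood above 0, and Mrps10 (−0.20 ± 0.27) and Mrps26 (−0.11 ± 0.24) below it, the last 2 at 0.11 and 0.12 with the spike-in block. Single arrays moved both medians: the large subunit value lay between 0.02 (without KO AngII 4) and 0.13 (without KO AngII 3), and the small subunit value between 0.03 (without KO AngII 4) and 0.13 (without KO PBS 3). Without WT AngII 2 both were 0.03. In 0 of 76 members were the AngII arrays apart from the PBS arrays in opposite directions in the 2 genotypes (0.682% of all genes).

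**Figure D5:**
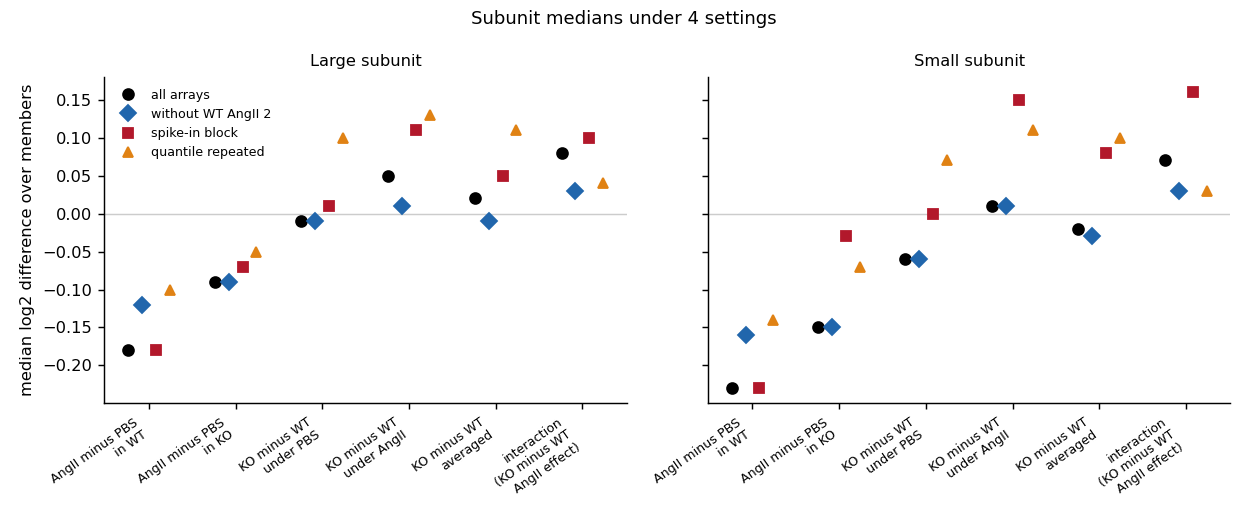
Median log2 difference over the large (left) and small (right) subunit members in the 6 comparisons, with all arrays, without WT AngII 2, with the spike-in signal as a block and with quantile normalisation repeated. Both AngII medians stay below 0 under these 4 settings, from −0.23 to −0.03, and the genotype medians lie on both sides of 0. The spike-in block cannot move the WT AngII medians, and leaving out WT AngII 2 cannot move the KO AngII medians.

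Partner genes of mitochondrial translation were described by the same counts. None of them passed the test in any of the 6 comparisons. For the counts below 0 with AngII, the shares of all genes and of bright genes are those given above for each genotype. Of 5 further proteins listed with the mitochondrial ribosome under other names (Dap3, Ptcd3, Chchd1, Gadd45gip1 and Slirp), 4 were below 0 with AngII in KO hearts and 5 in WT hearts, with a median of −0.23 in both. At an unadjusted p under 0.05, 1 was lower in KO hearts (2.94% of all genes) and 2 in WT hearts (3.77% of all genes). Dap3, a GTP-binding protein of the small subunit, differed by −0.35 ± 0.13 in KO hearts and by −0.28 ± 0.13 in WT hearts.

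Translation and assembly factors leaned likewise, 27 of 30 below 0 in KO hearts (median −0.19; 52.1% of all genes were below 0) and 27 of 30 in WT hearts (median −0.22; 51.0%). At the same p, 3 were lower in KO hearts (2.94% of all genes) and 6 in WT hearts (3.77%). They were led in KO hearts by Nsun4 (−0.36 ± 0.15) and Eral1 (−0.46 ± 0.20), both factors of ribosomal RNA and subunit assembly, and in WT hearts by the elongation factor gene Gfm1 (−0.34 ± 0.13) and by Lrpprc (−0.35 ± 0.14), which stabilises mitochondrial mRNA. Of 16 aminoacyl-tRNA synthetase genes, 14 were below 0 in KO hearts (median −0.18) and 13 in WT hearts (median −0.13), with 2 lower at an unadjusted p under 0.05 in each (2.94% of all genes in KO and 3.77% in WT hearts). The lowest p belonged to Cars2 in KO hearts (−0.50 ± 0.16), which charges cysteine tRNA, and to Mars2 in WT hearts (−0.39 ± 0.12), which charges methionine tRNA.

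Of 16 genes of mitochondrial DNA transcription and its nuclear regulators, 14 were below 0 with AngII in KO hearts (median −0.16) and 15 in WT hearts (median −0.28). At that p, 0 were lower in KO hearts (2.94% of all genes) and 4 in WT hearts (3.77%). In WT hearts Tfam, which packages mitochondrial DNA and starts its transcription, differed by −0.38 ± 0.14, and Tefm, its elongation factor, by −0.35 ± 0.15. With the spike-in block, the KO medians of the 4 partner lists lay between −0.13 and 0.02. The last was that of the 5 genes listed with the ribosome under other names, where the median changed sign.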

How the data were processed

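The authors' deposited values are log2 expression levels of 45101 probe sets on 10 one-colour arrays, which the submitters' processing notes credit to RMA, with no version given. RMA corrects background, equalises array distributions and compresses small differences of dim probe sets. The deposited values were not fully equal between arrays, with medians from 6.13 log2 on WT PBS 5 to 6.24 on KO AngII 3. No read depth applies to arrays, and their number limits the precision. Per the labels' protocols, cRNA was prepared from 6 µg of total RNA.

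After 64 control probe sets were left out, 45037 entered a linear model of the 4 group means across every array (R 4.3.3, limma 3.58.1, lmFit, then eBayes with its trend option, two-sided). Benjamini-Hochberg adjustment covered all of them, and members were called at an adjusted p under 0.05. Genes were named from GEO's platform annotation, which gave 1 symbol for 34945 probe sets, several for 932 and none for 9160. No member symbol differed from RefSeq by Entrez identifier. Differences are log2 ± SE. In all, 6 comparisons were made.

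The text names, per comparison and subunit, the 2 members with the smallest unadjusted p above and below 0, and Mrpl3, Mrpl12, Mrpl44 and Mrps22 throughout. Partner lists are represented by members of smallest p. Members and lists were chosen with earlier results of these data known. Alternatives were equal array medians, repeated quantile normalisation, bright probe sets only, eBayes with no trend, eBayes with both its trend and robust options, weighting of arrays, fits of just the groups compared, averaging over each gene's probe sets, a replicate block, a spike-in block, arrays of high spike-in signal alone and leaving out each array. A spike-in block combined with leaving out WT AngII 2, the set of bright genes and the grouping of members by their place in the ribosome were chosen after seeing the data. The script was tested on simulated data.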

Additional observations from a re-analysis of the deposited data

How the results depend on the processing

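Both AngII minus PBS medians stayed below 0 under every alternative run, from −0.216 to −0.104 for the large and −0.27 to −0.136 for the small subunit in WT hearts, and from −0.137 to −0.039 and −0.208 to −0.026 in KO hearts. Some alternatives cannot move a difference, among them the eBayes options and leaving out an array of a group not compared. The genotype and interaction medians lay on both sides of 0. Members passing the adjusted threshold numbered 0 under every alternative but array weights, where Mrps18a passed in KO minus WT with AngII (1 member, 0.33). Over all probe sets, array weights gave 2911 calls there against 5, and 1562 against 20 for the averaged difference. Groups of 2 or 3 arrays limit the precision, and the causes of the moves below were not tested. Arrays with high spike-in signal alone gave values for 2 comparisons, and fits on the compared groups alone for 4. Alternatives of background correction and slide were not run, since the table holds summarised values.

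The small subunit median in WT hearts was −0.136 with quantile normalisation repeated and −0.140 with the replicate block. In KO hearts it was −0.072 with quantile normalisation repeated and −0.026 with the spike-in block, with or without WT AngII 2, and between −0.208 and −0.077 when 1 array was left out. For KO minus WT with PBS, repeated quantile normalisation gave 0.096 for the large and 0.071 for the small subunit, and the replicate block 0.027 for the small. For KO minus WT with AngII, it gave 0.126 and 0.107, and the spike-in block gave 0.149 for the small subunit, or 0.131 without WT AngII 2. For the averaged difference it gave 0.107 and 0.101, and the spike-in block 0.079 for the small subunit. The interaction medians were −0.032 and −0.017 with the replicate block, and 0.162 for the small subunit with the spike-in block. Grouping Mrps18a and Mrps30 with the large subunit and dropping Mrps36 gave −0.178 and −0.241 in WT hearts.

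Members at an unadjusted p under 0.05 numbered 0 to 10 over the alternatives against 4 for AngII in KO hearts, 0 to 18 against 10 for AngII in WT hearts, and 0 to 18 against 1 for KO minus WT with AngII. Whether title numbers pair the arrays could not be decided from deviations from the group means. Over 10 pairs of equal number these deviations correlated from −0.3551 to 0.1029, and over 27 pairs of different number from −0.3091 to 0.3114. Deviations within a group cancel out, so in such small groups their correlations are partly fixed in advance.

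Over all alternatives, 107 of 1471 values of named members changed sign, 85 of them where the difference was under its SE. Of 344 values of members below 0 with AngII, 2 changed sign, both of Mrpl12 with the spike-in block. Both totals include alternatives that cannot alter the value, so the low shares of sign changes do not measure stability. With array medians set equal, sign changes were Mrpl54 at −0.01, Mrpl40 at −0.03 and Mrps24 at 0.00 in AngII minus PBS in WT, and Mrps22 at 0.00 in KO minus WT with PBS. Others were Mrpl3 at −0.02 in KO minus WT with AngII, and Mrps22 at −0.05 in the averaged genotype difference. With array weights, sign changes were Mrpl44 at −0.05 in the interaction. With the mean over the probe sets of a gene, sign changes were Mrps24 at −0.08 in AngII minus PBS in WT, and Mrpl3 at 0.03 in the averaged genotype difference. Others were Mrps26 at 0.09 in the interaction. On the arrays with high spike-in signal alone, sign changes were Mrpl12 at 0.04 and Mrpl44 at 0.01 in KO minus WT with PBS. With quantile normalisation repeated, sign changes were Mrpl3 at 0.04 and Mrpl44 at 0.04 in KO minus WT with PBS, and Mrpl44 at 0.01 and Mrps22 at 0.10 in KO minus WT with AngII. Others were Mrpl3 at 0.08 and Mrpl44 at 0.02 in the averaged genotype difference, and Mrpl44 at −0.03 in the interaction. With the title number as a replicate block, sign changes were Mrpl51 at 0.01, Mrpl44 at 0.13 and Mrps22 at −0.01 in KO minus WT with PBS, and Mrpl3 at 0.00 in KO minus WT with AngII. Others were Mrpl44 at 0.01 and Mrps22 at −0.03 in the averaged genotype difference, and Mrpl44 at −0.23 in the interaction. With the spike-in block, sign changes were Mrpl52 at −0.08, Mrpl42 at −0.12 and Mrpl12 at 0.15 in AngII minus PBS in KO, and Mrpl12 at 0.04 and Mrpl44 at 0.01 in KO minus WT with PBS. Others were Mrpl52 at −0.15, Mrpl54 at 0.10, Mrpl12 at 0.40, Mrps10 at 0.05, Mrps27 at 0.21, Mrpl3 at −0.01, Mrpl44 at 0.15 and Mrps22 at 0.09 in KO minus WT with AngII, and Mrpl12 at 0.22, Mrpl54 at 0.08, Mrps34 at 0.03 and Mrpl44 at 0.08 in the averaged genotype difference. Further ones were Mrps10 at 0.11, Mrps26 at 0.12, Mrpl12 at 0.36 and Mrps22 at 0.00 in the interaction. With the spike-in block and without WT AngII 2, sign changes were Mrpl52 at −0.08, Mrpl42 at −0.12 and Mrpl12 at 0.15 in AngII minus PBS in KO, and Mrpl12 at 0.04 and Mrpl44 at 0.01 in KO minus WT with PBS. Others were Mrpl52 at −0.41, Mrpl54 at 0.13, Mrpl12 at 0.30, Mrps10 at 0.08, Mrps27 at 0.09, Mrpl3 at −0.02, Mrpl44 at 0.00 and Mrps22 at 0.03 in KO minus WT with AngII, and Mrpl12 at 0.17, Mrpl54 at 0.10, Mrps10 at 0.01, Mrps34 at 0.04 and Mrpl44 at 0.01 in the averaged genotype difference. Further ones were Mrps10 at 0.14, Mrps26 at 0.11, Mrpl12 at 0.26 and Mrpl44 at −0.01 in the interaction. In AngII minus PBS in WT, leaving out 1 array gave −0.09 to 0.18 for Mrpl54, 0.00 to 0.02 for Mrpl40, −0.03 to 0.17 for Mrps36 and −0.09 to 0.12 for Mrps24. In KO minus WT with PBS, leaving out 1 array gave −0.29 to 0.04 for Mrpl12, −0.13 to 0.04 for Mrpl44 and −0.06 to 0.15 for Mrps22. In KO minus WT with AngII, leaving out 1 array gave −0.05 to 0.11 for Mrpl3, −0.20 to 0.15 for Mrpl44 and −0.08 to 0.02 for Mrps22. In the averaged genotype difference, leaving out 1 array gave −0.07 to 0.02 for Mrpl3, −0.12 to 0.05 for Mrpl44 and −0.05 to 0.06 for Mrps22. In the interaction, leaving out 1 array gave −0.41 to 0.01 for Mrps10, −0.25 to 0.04 for Mrps26, −0.23 to 0.10 for Mrpl12, −0.15 to 0.20 for Mrpl44 and −0.18 to 0.03 for Mrps22.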
